A study of Homo sapiens with 6 samples.

Results

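The genes described here are serum response factor (SRF) and 9 genes of the actin cytoskeleton that are widely known as targets of SRF and its MRTF cofactors, namely ACTB, ACTG1, MYL9, TAGLN, TAGLN2, TPM1, TPM2, VCL and FLNA. They were chosen by name, with earlier results of these data known, and make up 10 of the 58735 genes in the count table. All 10 had enough counts to be among the 17574 genes that were tested. RNA was sequenced from 6 libraries of unirradiated, otherwise untreated colorectal cancer cells. In 3 of them CNOT7, a deadenylase subunit of the CCR4-NOT complex, was knocked down by stably expressed shRNA. The 3 others were controls whose genotype is given as CNOT7 control. Their columns in the count table are headed shNc, where the sample titles read Nc. The labels name the line SW480, whereas the text of the study names HCT116 for its RNA sequencing, and the sources used here do not say which shRNA was used in which knockdown library. Nor is it stated whether the 3 libraries of a group came from separate cultures, so the p-values measure the spread between these libraries, which may be technical.

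SRF is a transcription factor that binds a short element called the CArG box. In the cytoplasm, actin monomers hold back the MRTF cofactors. When monomers are drawn into filaments, MRTF is released, enters the nucleus and joins SRF at genes for actin itself, for proteins that bundle or decorate filaments and for proteins that tie filaments to cell adhesions. SRF can instead pair with the ternary complex factors ELK1, ELK3 and ELK4 at early response genes. In epithelial tumour cells these genes are best known for their part in cell shape, contractility and migration.

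CArG boxes were looked for in the promoter windows that RefSeq gives for these genes on GRCh38.p14, from 250 bases before to 50 bases after the transcription start. Both strands were searched for the box, a stretch of A and T bases between CC and GG. The 100 bases before the start follow for the 3 members with a box, because these are the members where the known binding element of SRF lies within the window. Each sequence reads 5′ to 3′ on the strand of the gene, and capitals mark the CArG boxes.
SRF, chr6:43171169-43171268, forward strand: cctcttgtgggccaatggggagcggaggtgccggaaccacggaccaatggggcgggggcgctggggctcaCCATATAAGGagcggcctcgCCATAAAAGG
ACTG1, chr17:81512800-81512899, reverse strand: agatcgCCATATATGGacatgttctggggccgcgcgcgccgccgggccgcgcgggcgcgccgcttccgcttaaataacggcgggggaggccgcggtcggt
FLNA, chrX:154374635-154374734, reverse strand: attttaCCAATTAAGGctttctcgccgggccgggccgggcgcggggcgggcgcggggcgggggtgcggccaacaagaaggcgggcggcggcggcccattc
SRF held 2 boxes, at positions -30 to -21 and -10 to -1 from the start. ACTG1 and FLNA each held 1 box, both at -94 to -85. The windows of TAGLN2, TPM1, TPM2 and VCL held none, which says only that these letters do not occur there. The table has no entry for ACTB, MYL9 or TAGLN. Over all genes with a window, 1.6% of 27305 held a CArG box in at least 1 window.

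The control libraries held 23788451 to 25982493 counts and the knockdown libraries 27523812 to 29104872. The unit of level is CPM, in which TMM factors put the libraries on 1 scale. CNOT7 itself was at 169.1, 191.1 and 175.8 CPM in the control libraries and at 43.4, 47.2 and 38.6 CPM in the knockdown libraries, in accordance with the labels. Epithelial markers were present in all 6 libraries, EPCAM at 208.0 to 229.7 CPM and the intestinal factor CDX2 at 39.8 to 44.0 CPM. Of 8 fibroblast markers 3 (COL3A1, DCN and FAP) had no count in any library, and all of them together summed to 9.07 to 12.0 CPM. The smooth muscle myosin MYH11 was at 1.29 to 2.84 CPM, whereas the 7 smooth muscle markers, MYH11 among them, summed to 98.1 to 112.1 CPM. Mitochondrial genes took 6.36% to 6.88% of the counts in the control libraries and 6.54% to 7.40% in the knockdown libraries.

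With CNOT7 knockdown, 7 of the 10 genes were lower, none was higher and 3 were not called, by the quasi-likelihood test of edgeR with p-values adjusted by Benjamini-Hochberg over all tested genes and a threshold of 0.05. The 7 were SRF, both actins, MYL9, TAGLN, TPM1 and FLNA. Their falls lay between 14.0% for ACTG1 and 35.2% for TPM1. Among all tested genes, 11.9% were lower and 13.3% were higher, 25.2% in all. The members were chosen with earlier results of these data known, so this comparison is a description and not an independent test. Of the members, 0 were higher at an unadjusted p under 0.05 too, and 0 were higher with DESeq2. The median log2 fold change of the 10 genes was -0.39, beside 0.0039 over all tested genes. For 8 of the 10, the 7 lower genes and VCL, every knockdown library lay below every control library, as it did for 18.2% of all tested genes, and 38.8% of them had groups apart in either direction. In these bulk samples, fewer cells expressing a gene and less RNA per cell cannot be told apart.

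**Figure D1:**
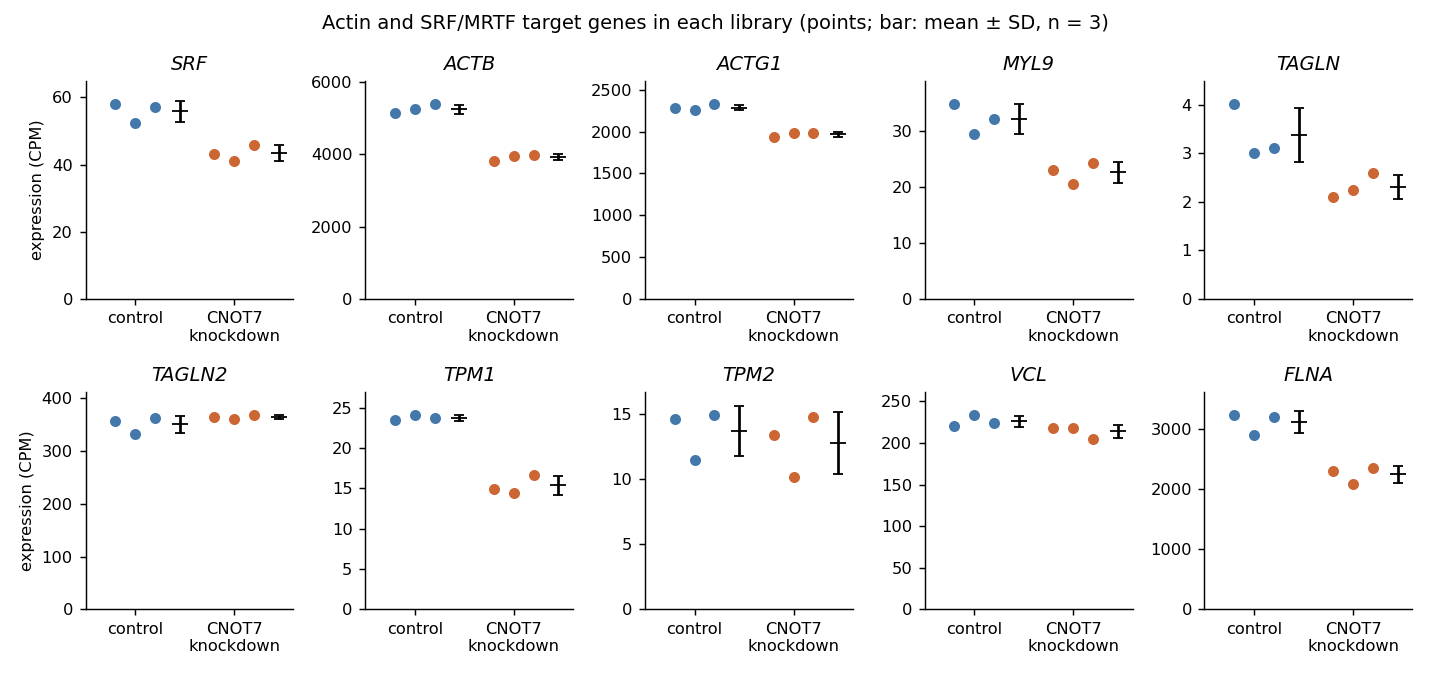
Expression in CPM (y axis, from 0) of each of the 10 genes in the 3 control libraries (blue) and the 3 CNOT7 knockdown libraries (orange), with the mean ± SD of each group. The groups are apart for SRF, ACTB, ACTG1, MYL9, TAGLN, TPM1 and FLNA, lie close together for VCL and overlap for TAGLN2 and TPM2.

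The transcription factor gene itself was lower. SRF (ENSG00000112658, GRCh38 chr6:43171299-43181507, forward strand) was at 57.9, 52.4 and 57.2 CPM in the control libraries and at 43.2, 41.1 and 45.9 CPM in the knockdown libraries. The highest knockdown library lay below the lowest control library. SRF fell by 22.3%, a log2 fold change of -0.36 (SE 0.0692, edgeR adjusted p = 8.75e-04), and was called lower in all 14 alternative analyses.

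Both cytoplasmic actin genes were lower. These genes encode beta-actin and gamma-actin, which make up the filaments of non-muscle cells. ACTB (ENSG00000075624, chr7:5527147-5563784, reverse strand) was at 5142, 5248 and 5390.2 CPM in the control libraries and at 3829, 3956 and 3982 CPM in the knockdown libraries. This was a fall of 25.4%, with a log2 fold change of -0.42 (SE 0.0420, edgeR adjusted p = 1.24e-06). ACTG1 (ENSG00000184009, chr17:81509971-81523847, reverse strand) was at 2278, 2260.2 and 2326 CPM in the control libraries and at 1933, 1989 and 1984 CPM in the knockdown libraries. The groups were apart for both genes, and the spread between libraries was small beside the gap. ACTG1 fell by 14.0% (log2 fold change -0.22, SE 0.0428, edgeR adjusted p = 0.00120). Together the actins took 0.734% to 0.758% of all counts in the control libraries and 0.587% to 0.610% in the knockdown libraries.

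The ratio between the actins was compared within each library, which does not depend on the scaling between libraries. Per kilobase of exon, the level of ACTB was 1.92, 1.97 and 1.97 times that of ACTG1 in the control libraries. In the knockdown libraries it was 1.69, 1.69 and 1.71 times, below all 3 controls. The size of this ratio depends on the length used, but its change between the groups does not. By the length of the transcript with the longest coding sequence, the control means were 2738 CPM per kilobase for ACTB and 1014 for ACTG1. The knockdown means were 2042 and 873 by that length, which was chosen after the data were seen. The log2 ratio differed by -0.21 between the groups, with an exact two-sided permutation p = 0.1, the smallest that 3 against 3 libraries can give, and 0.1 after adjustment over the 3 ratios compared. The coding sequences of the actins are 91.2% identical, with identical runs of up to 59 bases in their transcripts, so some reads cannot be placed on one gene or the other, and how the counting treated them is not given in the sources used here. Of 30 actin pseudogenes in the table, 16 had no count, and the 6 that were tested were not called. The pseudogenes summed to 4.63 to 5.31 CPM in the control libraries and 4.73 to 5.29 CPM in the knockdown libraries.

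Among the filament-binding and contractile genes, MYL9, TPM1 and TAGLN were lower, whereas TPM2 and TAGLN2 were not called. MYL9, a regulatory light chain of myosin II whose phosphorylation drives contraction, lies at chr20:36541484-36551447 on the forward strand (ENSG00000101335). It was at 34.8, 29.5 and 32.2 CPM in the control libraries and at 23.1, 20.6 and 24.2 CPM in the knockdown libraries. MYL9 fell by 29.5% (log2 fold change -0.50, SE 0.0859, edgeR adjusted p = 3.32e-04), and the groups did not overlap.

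TPM1 showed the largest fall of the 10 genes on the log2 scale. It encodes alpha-tropomyosin, which lies along actin filaments, and spans chr15:63042632-63071915 on the forward strand (ENSG00000140416). TPM1 was at 23.4, 24.1 and 23.7 CPM in the control libraries and at 15.0, 14.4 and 16.7 CPM in the knockdown libraries. The control libraries were within 1 CPM of each other, and the knockdown libraries were all far below them. The log2 fold change was -0.63 (SE 0.0855, edgeR adjusted p = 3.81e-05), a fall of 35.2%. Of its exonic bases, 21.4% are also exonic in antisense genes, TPM1-AS and AC079328.2. TPM1-AS had at most 2 counts in a library and AC079328.2 had none.

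TPM2, which encodes beta-tropomyosin (ENSG00000198467, chr9:35681992-35690121, reverse strand), was at 14.6, 11.5 and 14.9 CPM in the control libraries and at 13.4, 10.1 and 14.8 CPM in the knockdown libraries. The groups overlapped, and replicate 2 was the lowest library in both. The log2 fold change was -0.10 (SE 0.131, edgeR adjusted p = 0.632), and it was 0.04 without knockdown replicate 2. Per kilobase of exon, the ratio of TPM1 to TPM2 was 0.404, 0.529 and 0.400 in the control libraries and 0.282, 0.359 and 0.285 in the knockdown libraries. Its size, too, depends on the length used. By transcript length, as for the actins, the control means were 13.2 CPM per kilobase for TPM1 and 9.83 for TPM2. The knockdown means were 8.53 and 9.17. The log2 ratio was lower by 0.52 in the knockdown group, again without overlap between the groups and at the smallest possible exact permutation p of 0.1 (0.1 adjusted).

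Of the transgelin genes, whose products bind and stabilise actin filaments, TAGLN was lower and TAGLN2 was not called. TAGLN, long used as a marker of smooth muscle (ENSG00000149591, chr11:117199321-117204782, forward strand), was the least abundant member, with 103, 70 and 78 counts in the control libraries and 59, 62 and 77 counts in the knockdown libraries. Scaled to CPM, these were 4.01, 3.01 and 3.11 against 2.09, 2.25 and 2.59, so that the groups did not overlap but the gap between them was narrow. TAGLN fell by 31.6% (log2 fold change -0.55, SE 0.184, edgeR adjusted p = 0.0362), and its call was the least firm of the 7. It was called lower in 8 of 14 alternatives. Its adjusted p in edgeR was 0.194 without control replicate 1, 0.0552 without control replicate 3, 0.117 without knockdown replicate 1 and 0.0658 without knockdown replicate 2, and in DESeq2 it was 0.0926. Of its exonic bases, 11.4% are also exonic on the other strand in PCSK7, whose log2 fold change was -0.27 (edgeR adjusted p = 0.0214). The strand setting of the counting is not given in the sources used here, and the part of the overlap in the TAGLN counts was not tested.

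TAGLN2 is the transgelin typical of epithelial and other non-muscle cells (ENSG00000158710, chr1:159918107-159925732, reverse strand). It was at 355.6, 332.0 and 363.1 CPM in the control libraries and at 364.0, 360.1 and 367.7 CPM in the knockdown libraries. The groups overlapped, with 2 of the 3 knockdown libraries above all of the controls. The log2 fold change was 0.06 (SE 0.0509, edgeR adjusted p = 0.473), and TAGLN2 was not called in any alternative. The log2 ratio of TAGLN to TAGLN2 was lower by 0.60 with knockdown (exact two-sided permutation p = 0.1, the smallest possible, and 0.1 adjusted).

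The last 2 members tie filaments to each other and to adhesions. FLNA encodes filamin A, which crosslinks actin filaments into networks and anchors them to integrins (ENSG00000196924, chrX:154348524-154374638, reverse strand). It was at 3229, 2905 and 3198 CPM in the control libraries and at 2306, 2079 and 2347 CPM in the knockdown libraries. FLNA fell by 27.9% (log2 fold change -0.47, SE 0.0543, edgeR adjusted p = 6.31e-06), with no overlap between the groups. VCL encodes vinculin, a linker between actin and integrin or cadherin adhesions (ENSG00000035403, chr10:73995193-74121363, forward strand). It was at 220.9, 233.6 and 224.2 CPM in the control libraries and at 218.5, 218.4 and 204.9 CPM in the knockdown libraries. Each knockdown library lay below each control library, but the nearest pair differed by little. The log2 fold change of VCL was -0.08 (SE 0.0526, edgeR adjusted p = 0.289). It was called lower in 1 alternative, in which trends with GC content and transcript length were removed (log2 fold change -0.14, adjusted p = 0.00128). The exons of VCL share 11.1% of their bases with AP3M1 on the other strand, whose log2 fold change was -0.20 (edgeR adjusted p = 0.0372).

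**Figure D2:**
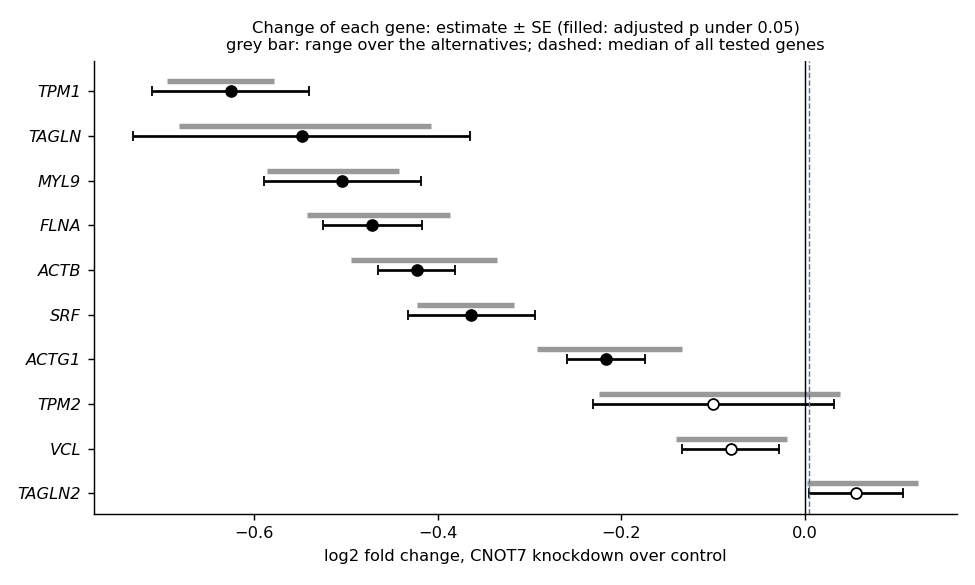
Log2 fold change of each gene, CNOT7 knockdown over control (x axis), as the edgeR estimate ± SE, filled where the adjusted p is under 0.05, with the range over the 14 alternatives as a grey bar and the median of all tested genes as a dashed line. TPM1 lies lowest at -0.63 and TAGLN2 highest at 0.06, and the bars of SRF, ACTB, ACTG1, MYL9, TPM1, TAGLN and FLNA stay below 0.

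Levels of different genes were compared per kilobase of exon. The order was the same in both groups, from ACTB through ACTG1, FLNA, TAGLN2, VCL, SRF, MYL9, TPM2 and TPM1 to TAGLN. In the control libraries it spanned from 1495 ± 35.4 CPM per kilobase for ACTB to 0.862 ± 0.140 CPM per kilobase for TAGLN (SD, n = 3). No 2 neighbours in the order had overlapping ranges. The ranks 7 to 9 depend on the length used. With the length of the transcript that has the longest coding sequence, chosen after the data were seen, the level of TPM1 in the control libraries was 13.2 CPM per kilobase, above MYL9 at 11.4 and TPM2 at 9.83. By that length the range of TPM1 lay within that of SRF, 12.5 to 13.8, and the ranges of MYL9 and TPM2 overlapped. In the knockdown libraries TPM2 was at 9.17, TPM1 at 8.53 and MYL9 at 8.03 CPM per kilobase by that length, and the range of TPM2 took in the means of the other two. The exon union of TPM1 is 12876 bases long and that transcript 1800 bases.

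**Figure D3:**
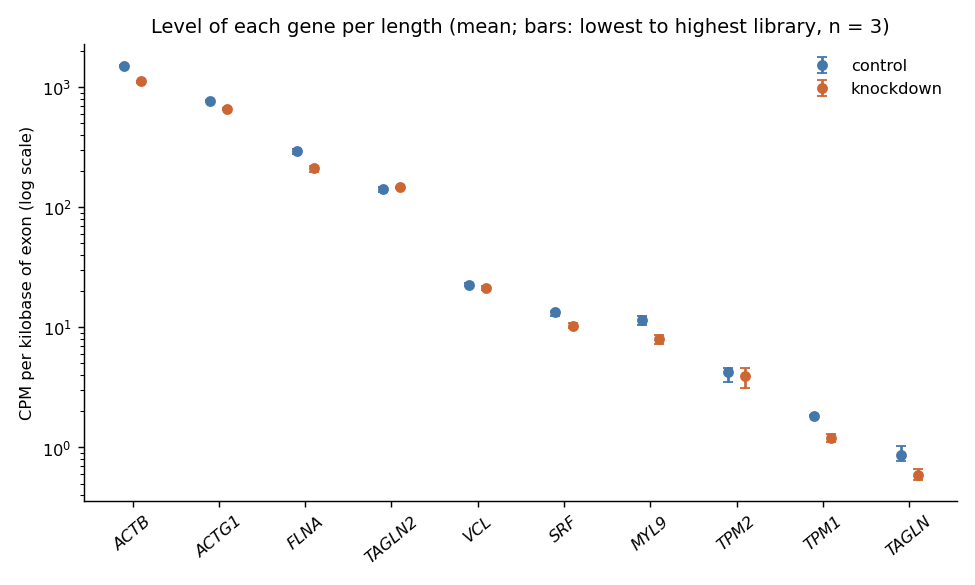
Level of each gene in CPM per kilobase of exon (y axis, log scale) in the control (blue) and knockdown (orange) libraries, as the mean with a bar from the lowest to the highest library. Levels run from 1495 CPM per kilobase for ACTB to 0.862 for TAGLN in the control libraries, and the order of the genes is the same in both groups.

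The spread within a group also had a shared pattern. In both groups replicate 2 was the lowest library for SRF, MYL9, TAGLN2, TPM2 and FLNA. For VCL, control replicate 2 was the highest library. GC content, taken from the longest transcript of each gene, was 55.3% to 62.2% in those 5 genes and 45.1% in VCL. It was 55.1% to 57.8% in ACTB, ACTG1 and TAGLN, in which replicate 2 was not the lowest library of both groups. In TPM1, with 45.9%, replicate 2 was the highest control library and the lowest knockdown library. Whether GC content has a part in this was not tested.

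The changes of the members were set beside those of equally abundant genes, since the median change of all tested genes drifted with abundance. The genes were split by abundance into 10 equal bins. In bin 1, the least abundant genes, the median log2 fold change was 0.149, and in bin 10 it was -0.058. ACTB, ACTG1, FLNA, TAGLN2 and VCL were in bin 10, where 25.8% of genes were called lower. SRF was in bin 8 (18.1% lower), MYL9 and TPM1 in bin 6 (13.1%), TPM2 in bin 5 (9.33%) and TAGLN in bin 3 (4.44%). Each of the 7 lower members lay below the median of its bin. This follows from their calls, since no bin median was below -0.058 and their smallest fall was -0.22 for ACTG1. With the trend removed by cyclic loess, ACTG1 had a log2 fold change of -0.13 (edgeR adjusted p = 0.0221).

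**Figure D4:**
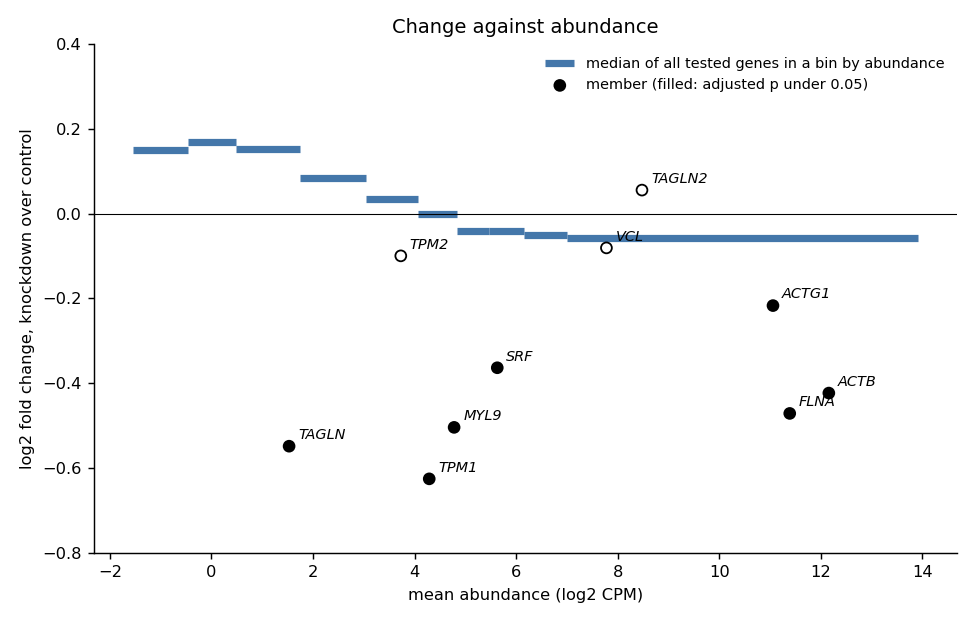
Log2 fold change (y axis) against mean abundance in log2 CPM (x axis) for the 10 genes, filled where called, with the median of all tested genes in each of 10 bins by abundance as a blue bar. The medians of the bins lie between 0.169 and -0.058, whereas SRF, ACTB, MYL9, TAGLN, TPM1 and FLNA lie at -0.36 or below.

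The cofactors and regulators of SRF did not move in a single direction. Of 9 genes tested, 2 were lower, 2 were higher and 5 were not called, with a median log2 fold change of -0.029. The counts of this and the following lists stand beside 11.9% lower and 13.3% higher of all tested genes. In abundance bin 10, 25.8% of genes were lower. MRTFA, the founding MRTF gene, fell from 40.2, 39.7 and 41.6 CPM in the control libraries to 32.5, 31.2 and 33.2 CPM in the knockdown libraries. Its log2 fold change was -0.32 (SE 0.0683, edgeR adjusted p = 0.00202). MICAL2, an enzyme that oxidises nuclear actin and so favours MRTF activity, fell from 131.2 to 135.6 CPM in the control libraries to 91.3 to 95.4 CPM in the knockdown libraries (log2 fold change -0.52, SE 0.0540, edgeR adjusted p = 2.17e-06). The 2 that rose were MYOCD and SCAI. MYOCD encodes myocardin, the cofactor of smooth and cardiac muscle, and was at 0.584, 0.387 and 0.279 CPM in the control libraries and 1.10, 1.88 and 1.18 CPM in the knockdown libraries (log2 fold change 1.71, SE 0.357, edgeR adjusted p = 0.00186). SCAI encodes a protein that binds MRTF and represses its activity, and rose by a log2 fold change of 0.32 (SE 0.0873, edgeR adjusted p = 0.0126). The adjusted p of SCAI was 0.0618 without control replicate 1, 0.0816 without control replicate 3 and 0.0512 without knockdown replicate 1.

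MRTFB, the second MRTF gene, had a log2 fold change of -0.02, with 57.7 to 64.4 CPM in the control libraries and 54.2 to 65.5 CPM in the knockdown libraries. The ternary complex factors had log2 fold changes of -0.03 for ELK1, 0.02 for ELK3 and -0.07 for ELK4. Each of these 4 genes had overlapping groups, and none was called. FHL2, a LIM-domain protein that binds SRF, had a log2 fold change of -0.17 and missed the threshold narrowly (edgeR adjusted p = 0.0502). It was called lower in 7 of 14 alternatives, among them without control replicate 2 (adjusted p = 0.0462) and without knockdown replicate 2 (adjusted p = 0.0200).

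Genes encoding relatives of the members gave smaller counts of calls. Of 6 tested tropomyosin, calponin, caldesmon and transgelin genes outside the 10, 2 were lower and 4 were not called. CNN2, a non-muscle calponin, fell by 20.6% and TPM3, a cytoskeletal tropomyosin, by 18.5%, with log2 fold changes of -0.33 (SE 0.0592, edgeR adjusted p = 4.82e-04) and -0.29 (SE 0.0520, edgeR adjusted p = 4.59e-04). Of the 4 muscle-type actin genes only ACTA2, the actin of smooth muscle, had enough counts for a test. It was at 3.31 to 3.50 CPM in the control libraries and 3.48 to 4.60 CPM in the knockdown libraries and was not called (log2 fold change 0.24, edgeR adjusted p = 0.303). ACTC1 and ACTG2 had no count in any library. Among 8 non-muscle myosin II genes, 2 were lower, the heavy chain gene MYH9 (log2 fold change -0.25, SE 0.0527, edgeR adjusted p = 0.00227) and the essential light chain gene MYL6 (-0.45, SE 0.0620, edgeR adjusted p = 4.53e-05). MYL12B, a regulatory light chain gene like MYL9, was at 285.7 to 290.4 CPM in the control libraries and at 274.5 to 308.6 CPM in the knockdown libraries and was not called.

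At focal adhesions, where filaments meet integrins, 7 of 23 genes were lower, 3 were higher and 13 were not called (median log2 fold change -0.056). TRIP6 and TGFB1I1, both LIM-domain adaptor genes, were lower, with log2 fold changes of -0.49 (SE 0.0808, edgeR adjusted p = 2.43e-04) and -0.48 (SE 0.0827, edgeR adjusted p = 3.51e-04). PARVA, which encodes the integrin-linked adaptor alpha-parvin, fell from 142.7, 150.4 and 155.0 CPM to 112.8, 119.2 and 104.0 CPM. ENAH encodes a protein that promotes filament growth and went the other way, from 60.2, 61.5 and 59.9 CPM in the control libraries to 103.2, 110.0 and 99.0 CPM in the knockdown libraries. Its log2 fold change was 0.78 (SE 0.0602, edgeR adjusted p = 5.66e-08). ACTN4, encoding the crosslinker alpha-actinin 4 and the most abundant of the list per kilobase, was at 2322 to 2457 CPM in the control libraries and at 2196 to 2376 CPM in the knockdown libraries and was not called.

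Proteins that bind monomers or turn filaments over were encoded by 19 tested genes, of which 7 were lower, 1 was higher and 11 were not called (median log2 fold change -0.122). TMSB4X encodes thymosin beta 4, which sequesters actin monomers. It fell from 324.7, 332.0 and 335.1 CPM to 199.1, 219.0 and 202.0 CPM, a log2 fold change of -0.68 (SE 0.0531, edgeR adjusted p = 6.72e-08). CAP2, a monomer-recycling protein gene, fell by 38.2%, and WDR1, whose product assists cofilin in taking filaments apart, by 20.5%. The 1 gene that rose was GSN, encoding the severing protein gelsolin, from 159.7, 145.0 and 153.5 CPM to 229.9, 213.5 and 230.9 CPM (log2 fold change 0.56, SE 0.0565, edgeR adjusted p = 1.58e-06). TMSB10, a second thymosin and the most abundant of the list per kilobase, had overlapping groups and a log2 fold change of -0.20 (edgeR adjusted p = 0.0808). Its log2 fold change was -0.29 without control replicate 2 (adjusted p = 0.00612), -0.29 without knockdown replicate 3 (0.0134) and -0.10 without knockdown replicate 2 (0.268). It was also called lower with no filter on low counts (adjusted p = 6.16e-04), with a replicate block (2.78e-06) and once trends with GC content and length were taken out (0.00102).

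In the Arp2/3 complex, which starts branched filaments, 1 of 9 genes was lower and 8 were not called. The 1 lower gene was ARPC5L, with a log2 fold change of -0.20 (SE 0.0675, edgeR adjusted p = 0.0351). It was not called without control replicate 1 (adjusted p = 0.0942), control replicate 3 (0.147), knockdown replicate 1 (0.0893) or knockdown replicate 2 (0.0801), nor with library totals (0.109) or cyclic loess (0.0708). ACTR2, the most abundant of the complex per kilobase, was at 528.7 to 572.1 CPM in the control libraries and at 551.8 to 616.1 CPM in the knockdown libraries. It was not called (log2 fold change 0.08, edgeR adjusted p = 0.283), but was called higher with cyclic loess (0.16, adjusted p = 0.0239) and with a replicate block (0.08, adjusted p = 0.0486).

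The early response genes that SRF controls with ternary complex factors had a median log2 fold change of 0.155. This median rested on single libraries and was 0.0284 without control replicate 2, 0.0646 without knockdown replicate 3, 0.254 without knockdown replicate 2 and 0.275 without control replicate 1. Of 11 genes, 2 were lower, 2 were higher and 7 were not called. FOS, the best known of them, rose from 92.6, 84.7 and 83.0 CPM to 114.3, 111.9 and 121.8 CPM (log2 fold change 0.42, SE 0.0611, edgeR adjusted p = 7.43e-05). EGR2 rose from 0.602 to 1.01 CPM in the control libraries to 1.61 to 2.06 CPM in the knockdown libraries. EGR3 and the survival gene MCL1 were lower, by 22.7% and 22.1%. EGR1, the most abundant of the list per kilobase, had a log2 fold change of 0.04, with 225.5 to 231.3 CPM in the control libraries and 227.8 to 239.5 CPM in the knockdown libraries. All 6 genes known as targets of both SRF and the coactivator YAP were lower, beside 11.9% of all tested genes. This list was chosen with earlier results of these data known, so its count is a description and not an independent result. CYR61 fell from 141.2 to 154.7 CPM to 21.9 to 24.3 CPM and ANKRD1 from 246.2 to 254.1 CPM to 80.4 to 84.7 CPM.

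Over the lists described here together, pseudogenes left out, 29 of 92 tested genes were lower, 8 were higher and 55 were not called, with a median log2 fold change of -0.073. The lower genes were 31.5% of those tested, beside 11.9% lower and 13.3% higher of all tested genes. They include all 6 targets shared with YAP. The lists were chosen with earlier results of these data known, so this share is a description and not an independent result. Among the most abundant genes, in bin 10, 25.8% were lower. With GC content and length trends removed 48 genes of the lists were lower, and without knockdown replicate 2 there were 14 that were higher. The epithelial markers moved with the groups in part. Of 8 tested, KRT8 and KRT19 were lower (log2 fold changes -0.15 and -0.18), CDH1 and VIL1 were higher (0.51 and 0.72) and 4 were not called, and their summed level was 5696 to 6131 CPM in the control libraries and 5293 to 5863 CPM in the knockdown libraries. Of 6 tested smooth muscle markers 1, DES, was higher (log2 fold change 0.80), and the 2 tested fibroblast markers were not called. The summed level of the smooth muscle markers was 103.1 to 112.1 CPM in the control libraries and 98.1 to 111.6 CPM in the knockdown libraries, and that of the fibroblast markers was 9.07 to 10.9 and 10.4 to 12.0 CPM. Their part in the changes of the 10 genes was not tested.

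**Figure D5:**
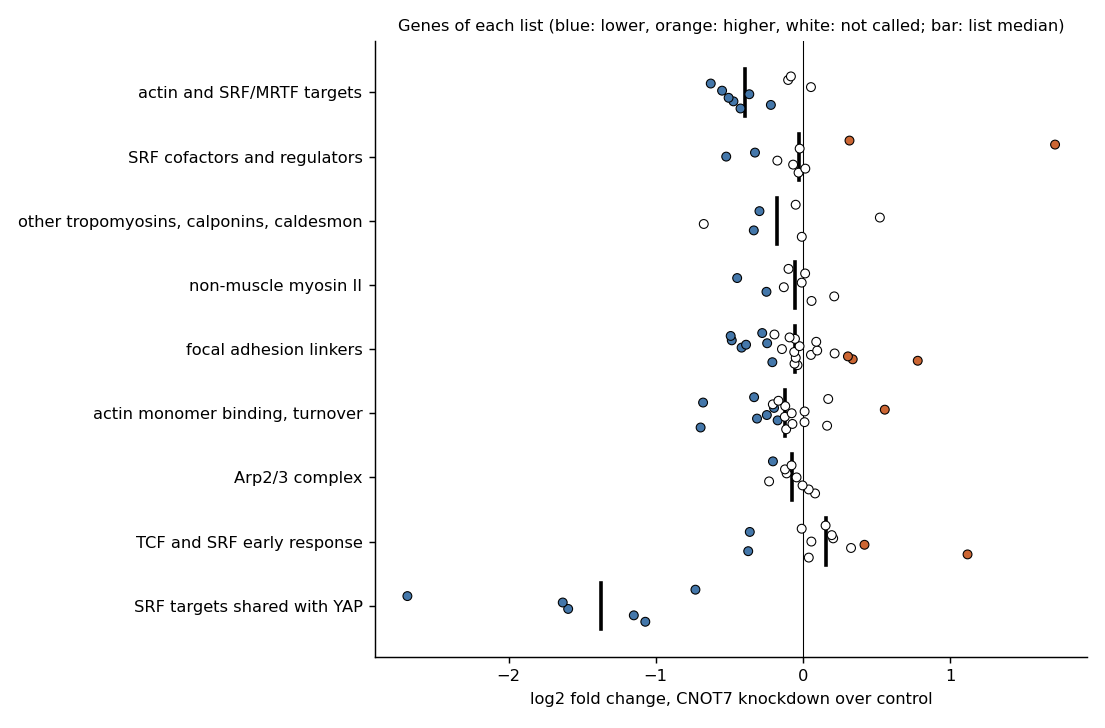
Log2 fold change, CNOT7 knockdown over control (x axis), of the tested genes of each list shown (y axis), blue where lower, orange where higher and white where not called, with the list median as a bar. The 10 actin and SRF/MRTF targets have a median of -0.39, the SRF cofactors one of -0.029 and the early response genes one of 0.155, which ranged from 0.0284 to 0.275 with each library left out in turn.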

How the data were processed

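RNA was measured in 3 control and 3 CNOT7 knockdown libraries. The authors isolated total RNA with TRIzol and deposited raw counts of reads per gene. The submitters' processing notes name CASAVA 1.8, fastp, HISAT2 2.0.5, featureCounts 1.5.0-p3 and DESeq2 1.20.0. The strand setting, which bears on TAGLN, TPM1 and VCL with their antisense exons, is not given in the sources used here. Nor is the treatment of multi-mapping reads, which bears on ACTB and ACTG1. Gene IDs matched GENCODE release 29 (GRCh38).

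Genes were tested with edgeR 4.0.16 under R 4.3.3 (filterByExpr, TMM, glmQLFit and glmQLFTest, Benjamini-Hochberg over 17574 genes, no replicate term). The SE was taken from the log2 fold change and its F statistic. The 3 ratios were tested by exact permutation. Replicates within a group differed by more than sampling noise. The steps were tested on simulated data. Alternatives were DESeq2 1.42.0, RLE, library totals, 2 filters, a replicate term, cyclic loess (limma 3.58.1), each library left out and, added after the data were seen, GC and length trends (loess, span 0.3). Total counts were 23788451 to 29104872, and each SE reflects the spread between libraries as well as this depth.

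The members and lists were chosen with earlier results of these data known. From each list the text names up to 4 called genes of largest change with groups apart and the most abundant gene per kilobase, and every SRF cofactor. 1 list and 1 further gene are not reported here. Identity between paralogs was computed on coding bases, since no protein table was used here.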

Additional observations from a re-analysis of the deposited data

How the results depend on the processing

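The number of members called lower was 6 to 8 over the 14 alternatives, and the number called higher was 0 in each. SRF, ACTB, ACTG1, MYL9, TPM1 and FLNA were called lower in all of them. TAGLN was not called with DESeq2 (log2 fold change -0.56, adjusted p = 0.0926) or with library totals without TMM factors (-0.50, adjusted p = 0.0587), and with each library left out its value ranged from -0.64 to -0.41. TPM2 ranged from -0.22 to 0.0386 with each library left out, the positive value coming without knockdown replicate 2. With GC content and length trends removed, the list medians fell to -0.128 for the focal adhesion genes, -0.197 for the monomer and turnover genes and 0.0751 for the early response genes, VCL was called lower (-0.14), and the pathway lists held 48 lower genes in place of 29. In that alternative the median of all tested genes was -0.0522, beside 0.0039. With each library left out, the lists held 6 to 14 higher genes in place of 8, the 14 coming without knockdown replicate 2. The cause of these shifts was not tested.

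With a replicate block, 7 members were lower, 38 genes of the lists were lower and 14 were higher. The numbers share no stated origin. The deviations of same-numbered libraries correlated at r = 0.14, 0.51 and 0.05 over 11979 genes, so that the numbers were not taken as pairs, and control replicate 1 correlated best with knockdown replicate 3 (0.44).

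A few genes that were not called in either fit changed sign. Under cyclic loess the log2 fold changes were 0.0278 for ACTN4, 0.0152 for ELK1, 0.0163 for MRTFB and 0.0572 for MYL12B. With library totals they were 0.0184 for ELK1, 0.0246 for MRTFB and 0.0385 for MYL12B. With GC content and length trends removed they were -0.0355 for EGR1 and -0.0241 for ELK3. With each library left out in turn, ELK1 ranged from -0.111 to 0.0277, ELK3 from -0.0597 to 0.0701, MRTFB from -0.0914 to 0.0418 and MYL12B from -0.0653 to 0.0175.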

Other observations

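A wider set of genes outside all the lists above was taken by words in the gene descriptions of the count table (actin, myosin, formin, tropomodulin, villin and the like), a choice made after the data were seen. The words also take in genes with other roles, among them chromatin remodelling genes described as actin dependent such as SMARCD1 and SMARCA1, so the set does not stand for the actin cytoskeleton alone. Of 169 such protein-coding genes 119 were tested, 18 were lower, 29 were higher and 72 were not called, with a median log2 fold change of 0.003. These are shares of 15.1% lower and 24.4% higher, beside 11.9% and 13.3% of all tested genes.

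Among those that rose was ABLIM3, an actin-binding LIM protein gene linked to MRTF and SRF signalling, from a mean of 0.571 to 2.21 CPM (log2 fold change 1.95, SE 0.285, edgeR adjusted p = 7.63e-05). TMOD1, whose product caps the slow-growing ends of filaments, rose from a mean of 1.97 to 4.88 CPM (log2 fold change 1.31, SE 0.161). The myosin heavy chain gene MYH7B was the most abundant of the large rises, from a mean of 57.6 to 123.1 CPM (log2 fold change 1.09, SE 0.0810, edgeR adjusted p = 3.54e-08). MACF1, a crosslinker of actin and microtubules, fell from a mean of 795.6 to 632.7 CPM and COTL1, encoding a coactosin-like protein that binds filaments, from 561.1 to 447.0 CPM. These 5 genes were named after their values were seen.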
